A study of Mus musculus with 7 samples.

Results

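Lymphoid priming is the early use of lymphoid genes by multipotent progenitors that still have myeloid potential. The 9 genes taken here to describe it were Flt3, Il7r, Ikzf1, Tcf3, Satb1, Bcl11a, Dntt, Rag1 and Rag2, each chosen by its symbol from the 48440 genes of the expression table, and all 9 had a row and passed the filter on low values. Expression was measured by RNA sequencing of LSK cells, the lineage-negative, Sca1-positive and cKit-positive bone marrow (BM) cells in which hematopoietic stem cells (HSCs) and multipotent progenitors are found. The 4 wild-type libraries came from irradiated mice that had received wild-type BM, and the 3 PROSER1 KO libraries from irradiated mice that had received BM of a constitutive, endonuclease-mediated knockout of PROSER1, a protein that interacts with the TET enzymes of DNA demethylation. All recipients were C57BL/6 mice given 9.5 Gy, no other treatment was recorded, and LSK cells of both groups were sorted at day 77 after transplantation. The study asked what loss of PROSER1 changes in these cells before a defect of the stem cells appears, and here that question was put to the 9 genes. Age of the donors was not given in the sample labels, and LSK cells left over from a recipient cannot be told apart from donor cells in these data. The labels call the libraries biological replicates without saying that each came from its own animal, so the p-values measure the spread between libraries.

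In mouse BM, the earliest lymphoid-primed multipotent progenitors are recognised by FLT3, the receptor tyrosine kinase for FLT3 ligand, and their descendants gain the interleukin 7 receptor before they commit to the B or T lineage. Ikaros (Ikzf1), E2A (Tcf3), SATB1 and BCL11A are transcription and chromatin factors that lymphoid development depends on. Dntt encodes terminal deoxynucleotidyl transferase, which adds bases to the joints of antigen receptor genes, and RAG1 and RAG2 together form the recombinase that cuts those genes. Rag1 and Rag2 are neighbours on chromosome 2 and are transcribed towards each other.

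The sequences upstream of the 3 recombination genes are shown because the E2A proteins, the products of Tcf3, bind E-boxes. They are the 250 bases before the RefSeq start of each gene (GRCm38.p6, 5′ to 3′ on the strand of the gene), with every E-box (CANNTG, a palindrome, so that 1 strand covers both) in capitals. Rag1 lies at chr2:101649533-101649782 on the minus strand, Rag2 at chr2:101624462-101624711 on the plus strand and Dntt at chr19:41029025-41029274 on the plus strand, and none of the 3 windows overlapped an exon of its own gene.
Rag1: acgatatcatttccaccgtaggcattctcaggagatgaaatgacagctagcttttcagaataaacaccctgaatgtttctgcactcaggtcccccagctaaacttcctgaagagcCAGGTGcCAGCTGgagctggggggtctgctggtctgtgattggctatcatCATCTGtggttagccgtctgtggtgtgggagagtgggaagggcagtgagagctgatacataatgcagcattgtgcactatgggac
Rag2: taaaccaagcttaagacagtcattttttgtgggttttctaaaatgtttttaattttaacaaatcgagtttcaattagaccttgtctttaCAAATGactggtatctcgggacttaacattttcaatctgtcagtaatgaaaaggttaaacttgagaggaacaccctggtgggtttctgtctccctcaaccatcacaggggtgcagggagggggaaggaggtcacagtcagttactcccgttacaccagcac
Dntt: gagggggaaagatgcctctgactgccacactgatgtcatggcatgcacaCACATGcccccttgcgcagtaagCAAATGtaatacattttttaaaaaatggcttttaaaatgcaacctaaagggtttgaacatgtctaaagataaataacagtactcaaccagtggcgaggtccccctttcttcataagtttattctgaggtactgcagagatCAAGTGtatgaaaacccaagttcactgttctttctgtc
Rag1 held 3 E-boxes, Dntt 3 and Rag2 1. Over all 9 genes, 9 of 14 start windows (64.3%) held at least 1 E-box, against 66.2% of the 32851 RefSeq windows. Satb1 alone supplied 5 of the 14 windows, which partly overlap. By gene, 8 of the 9 had an E-box in at least 1 window, and the share by gene over all RefSeq genes was not worked out. The Rag1 window also held 2 copies of TGTGGT, the core letters of the RUNX motif, which 14.0% of all windows contain on either strand, and 1 copy of the Ikaros letters TGGGAA (21.6% of all windows). The Rag2 window held neither, and held 1 copy of the PU.1 letters GAGGAA (23.3% of all windows). These are matches of letters and carry no measurement of binding.

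None of the 9 genes passed the call in the libraries labelled PROSER1 KO against the wild-type libraries, and none separated the groups without overlap. The call (limma, adjusted p under 0.05 over all genes tested and a fold change above 1.5) was passed by 42 of 16251 genes, or 0.258%, and the groups did not overlap for 10% of genes (5.17% with PROSER1 KO higher). At an unadjusted p under 0.05 limma named 1 of the 9, Rag1, beside 9.73% of all genes. On the recovered read pairs edgeR and DESeq2 called 0 of 9 as well, beside 0.253% and 0.63% of all genes, and each named 1 of the 9 at an unadjusted p under 0.05, beside 9.73% of all genes for edgeR and 7.03% for DESeq2. Of the 9 log2 fold changes 5 were above 0 and 4 below, with a median of 0.03 against 0.00 over all genes tested, of which 50.6% were above 0. In RNA from many cells, fewer cells that express a gene and less RNA per cell cannot be told apart. The libraries held 33143619 to 45140743 read pairs on genes, so that even Rag2, the gene of the 9 with the fewest read pairs, had at least 432 in a library and a counting error of at most 4.81%. Proser1 mRNA itself was not lower in the libraries labelled PROSER1 KO, at 2464, 2359 and 2338 normalized counts against 2019, 2153, 2103 and 2077, and the labels alone therefore carry the genotype. A normalized count is the number of read pairs on a gene divided by 1 size factor per library.

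Per length of exon, Dntt stood far above the other 8 genes. Its mean over the 7 libraries was 377 FPKM (read pairs scaled by exon length and by the total read pairs on genes), rank 120 of 16195 genes. Flt3 followed at 97.8 FPKM, Ikzf1 at 74.4 and Tcf3 at 51.6, with no overlap of these 4 ranges over the 7 libraries. Bcl11a at 13.7 FPKM, Il7r at 11.3 and Satb1 at 10.2 came next, and their ranges over libraries overlapped, as those of Rag1 and Rag2 did at 4.71 and 4.49 FPKM. Within the recombination machinery, both recombinase genes were therefore the lowest of the 9 and the transferase gene the highest. The exon length was the union of all annotated exons, so a long union lowers the level per length. Satb1 (19027 bases) and Tcf3 (4039 bases) had similar mean normalized counts in wild-type, 7593 and 8029.

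**Figure D1:**
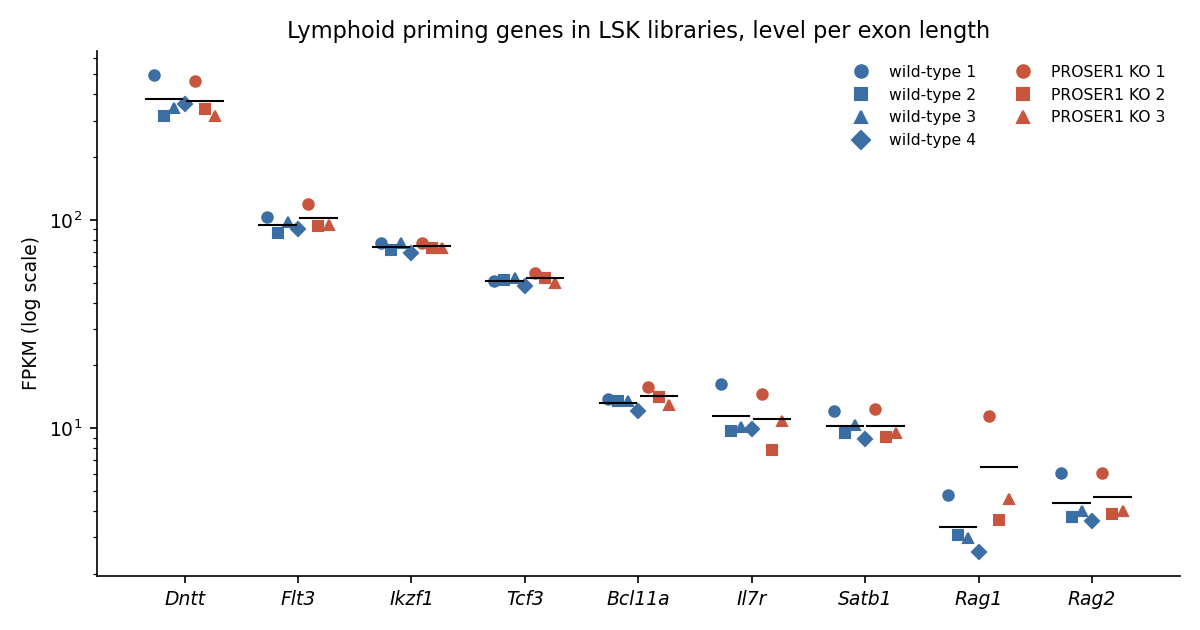
Level of each gene per exon length (FPKM, log axis) in every library, with wild-type in blue, PROSER1 KO in red, the marker shape giving the replicate and black bars the group means. Dntt lies highest at a mean of 377 FPKM and Rag1 and Rag2 lowest at 4.71 and 4.49, and the groups overlap for every gene.

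Flt3, the receptor that marks lymphoid-primed progenitors, had overlapping levels in the 2 groups. It had 25070.2, 20598, 22922 and 22729.8 normalized counts in the wild-type libraries and 28504, 22108 and 22807 in the libraries labelled PROSER1 KO. The first library of each group was the highest of its group, and the other 5 libraries lay within 1.11-fold of each other. Means of 22830 ± 1827 (SD, n = 4) for wild-type and 24473 ± 3508 (SD, n = 3) for PROSER1 KO gave a log2 fold change of 0.09 with a standard error of 0.095 and a limma adjusted p of 0.794. Its 95% interval ran from -0.12 to 0.31, which on the linear scale is 0.921-fold to 1.24-fold.

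Il7r, the receptor chain for the cytokine that early lymphoid cells depend on, varied more between libraries than between groups. It was measured at 2971, 1748, 1794 and 1884 normalized counts in wild-type and at 2643, 1394 and 1982 in PROSER1 KO. Both first libraries again stood above the rest, and the lowest value was that of PROSER1 KO replicate 2. The means of 2099 ± 584 (SD, n = 4) and 2006 ± 625 (SD, n = 3) gave a log2 fold change of -0.08 (SE 0.23, 95% interval -0.60 to 0.44, limma adjusted p 0.948). On the linear scale this interval reached from 0.662-fold to 1.36-fold.

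The most evenly expressed of the 9 genes were Tcf3 and Ikzf1. Tcf3, which encodes the E proteins E12 and E47, had 8041, 8020.3, 8126 and 7927 normalized counts in wild-type against 8654, 8148 and 7859 in PROSER1 KO. Its wild-type libraries differed from their mean by an SD of only 81.8 on 8029, and the KO libraries surrounded them. The log2 fold change was 0.03 (SE 0.045, limma adjusted p 0.869, 95% interval -0.07 to 0.13).

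Ikzf1, which encodes the zinc finger factor Ikaros, had 17657, 15919.8, 17088 and 16407 normalized counts in wild-type against 17319.9, 16209 and 16592 in PROSER1 KO. The values of the 2 groups were interleaved. Its log2 fold change of -0.00 (SE 0.050, 95% interval -0.12 to 0.11, limma adjusted p 0.987) corresponds to a fold between 0.922 and 1.08.

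Satb1, a chromatin organiser that lymphoid progenitors need, had 9036, 6947, 7494 and 6894 normalized counts in wild-type against 9067, 6564 and 7088 in PROSER1 KO. Replicate 1 of both groups lay above the other 5 libraries, which ranged from 6564 to 7494. The group means of 7593 ± 1000 (SD, n = 4) and 7573 ± 1320 (SD, n = 3) were nearly equal, with a log2 fold change of -0.01 (SE 0.12, limma adjusted p 0.989).

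Bcl11a, a zinc finger repressor required for early B cells, had 7114, 6879, 6806 and 6493 normalized counts in wild-type against 8045, 7109 and 6696 in PROSER1 KO. The highest value was again PROSER1 KO replicate 1, and the other KO libraries fell within the range of the wild-type libraries. The log2 fold change was 0.09 (SE 0.065, 95% interval -0.05 to 0.24, limma adjusted p 0.697).

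Dntt, the transferase gene, had 44858, 27834, 30147 and 33477 normalized counts in wild-type against 41391, 29761.5 and 28398 in PROSER1 KO. Wild-type replicate 1 and PROSER1 KO replicate 1 stood 1.499-fold and 1.38-fold above the mean of the other 5 libraries. Wild-type averaged 34079 ± 7550 (SD, n = 4) and PROSER1 KO 33184 ± 7141 (SD, n = 3), and the log2 fold change was -0.03 (SE 0.17, 95% interval -0.42 to 0.35, limma adjusted p 0.971).

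Rag2 had 816, 496, 523 and 501 normalized counts in wild-type against 811, 509 and 539 in PROSER1 KO. The first library of each group was 1.59-fold and 1.58-fold above the mean of the other 5, which lay within 1.09-fold of each other. The log2 fold change between groups was 0.09 (SE 0.21, 95% interval -0.39 to 0.56, limma adjusted p 0.935).

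Rag1 was the 1 gene of the 9 with a sizeable difference between group means, and most of it came from a single library. It had 1239.5, 783, 744 and 686 normalized counts in wild-type against 2919.85, 914 and 1182 in PROSER1 KO. PROSER1 KO replicate 1 was 3.39-fold above the mean of the 5 libraries not numbered 1, while the other KO libraries lay between wild-type replicate 1 and the remaining wild-type libraries. Wild-type averaged 863 ± 254 (SD, n = 4) and PROSER1 KO 1672 ± 1089 (SD, n = 3), and the log2 fold change of 0.80 (SE 0.36, 95% interval 0.00 to 1.61) had a limma adjusted p of 0.512. The two-sided exact permutation test gave p = 0.114, where 0.0286 is the smallest that this design allows. Without PROSER1 KO replicate 1 the log2 fold change was 0.31 (limma adjusted p 0.712), and with both libraries numbered 1 left out, a choice made after the data were seen, it was 0.50 (limma adjusted p 0.424). Across all leave-one-out fits it stayed above 0, between 0.31 and 1.15. The gene B230118H07Rik shares 80 exonic bases with Rag1 and 208 with Rag2 in the annotation, and its normalized counts of 707 to 998 in wild-type and 723 to 834 in PROSER1 KO included 723 in PROSER1 KO replicate 1, where Rag1 was highest.

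**Figure D2:**
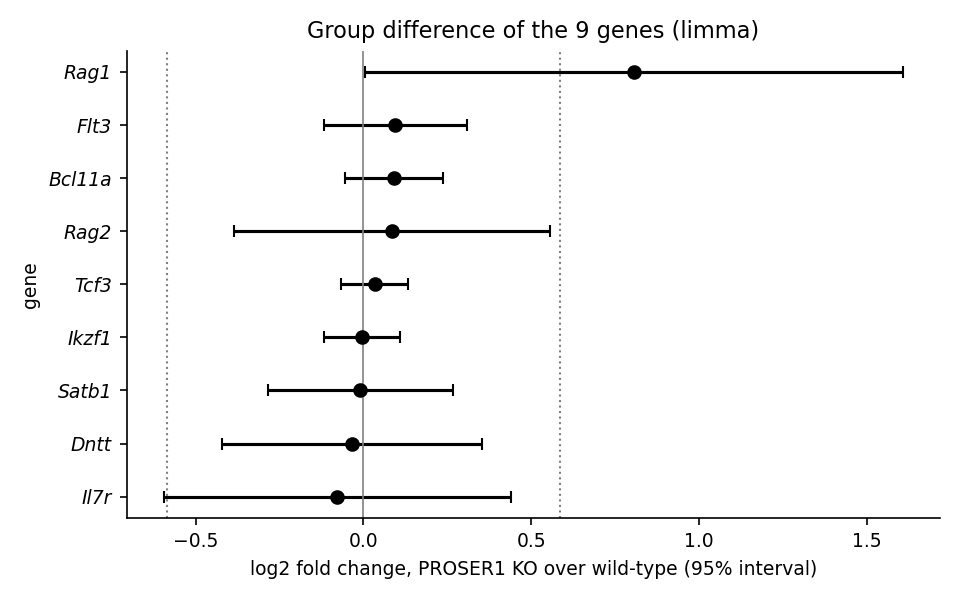
Log2 fold change of each gene, PROSER1 KO over wild-type, with its 95% interval from limma (dotted lines at a 1.5-fold change either way). Rag1 lies at 0.80 with an interval from 0.00 to 1.61, and the other 8 genes lie between -0.08 and 0.09 with intervals across 0.

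Because Rag1 and Rag2 act as a pair, their ratio was taken within each library. Rag1 over Rag2 was 1.52, 1.58, 1.42 and 1.37 in the wild-type libraries and 3.60, 1.80 and 2.19 in PROSER1 KO. Every KO library was above every wild-type library, at 2.53 ± 0.949 (SD, n = 3) against 1.47 ± 0.0942 (SD, n = 4). The log2 difference of 0.72 had an exact permutation p of 0.0286, the smallest that this design can give, and 0.257 after Benjamini-Hochberg adjustment over the 36 ratios of any pair of the 9 genes, so the result did not pass the correction. The groups did not overlap for 4 of the 36 ratios (11.1%), a share near the 10% of single genes tested. Each of the 4 contained Rag1 (against Dntt, Il7r, Satb1 or Rag2). The share among ratios of other genes was not worked out. The ratio difference was 0.43 without PROSER1 KO replicate 1 and 0.45 without both libraries numbered 1.

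Several T and B lineage genes also had their highest value in PROSER1 KO replicate 1. Cd3g, a chain of the T cell receptor complex, had 697 normalized counts there, against 20.9 to 52.9 in wild-type and 24.5 and 38.4 in the other KO libraries. Cd3e reached 197 and Cd3d 106 in that library, where no other library exceeded 24.0 and 21.1 respectively. The T cell factor genes Tcf7 (1480.3) and Bcl11b (611) and the B lineage genes Ebf1 (494), Pax5 (303) and Igll1 (70.9) had their highest value in it as well. The part of these transcripts in the Rag1 result was not tested.

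**Figure D3:**
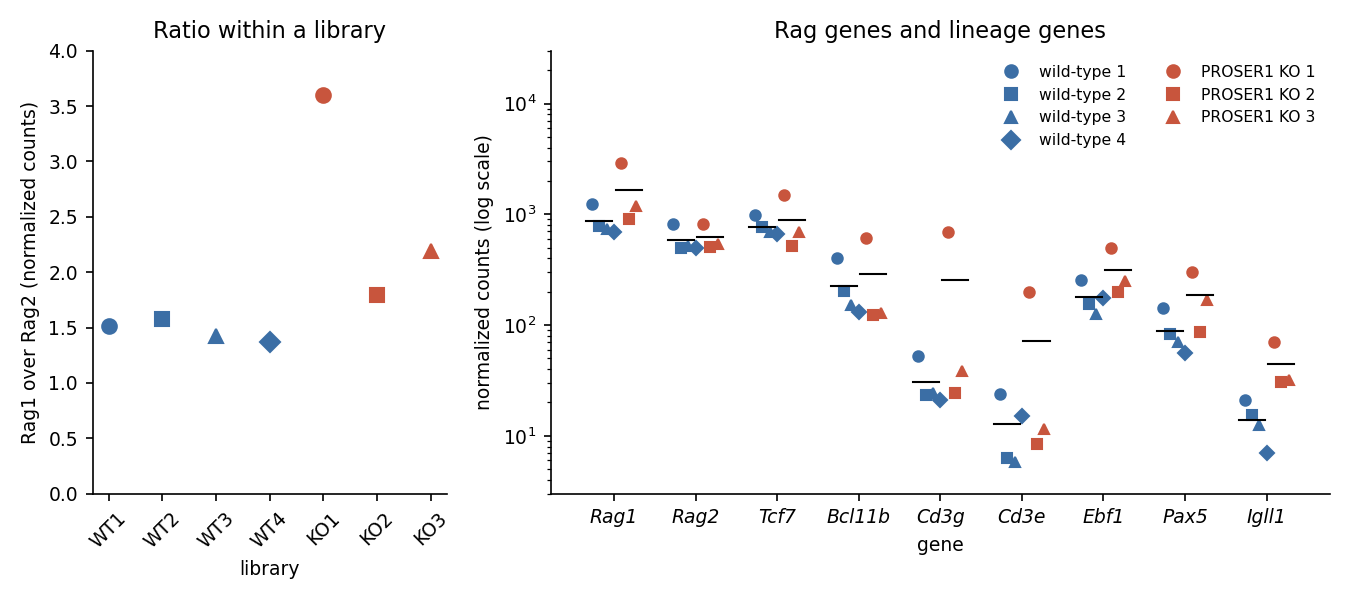
Left, Rag1 over Rag2 in each library (WT, wild-type, and KO, PROSER1 KO, with the replicate number); right, normalized counts (log axis) of Rag1, Rag2 and lineage genes, with black bars at the group means. The ratio lies between 1.37 and 1.58 in wild-type and between 1.80 and 3.60 in PROSER1 KO, and Cd3g stands at 697 in KO replicate 1 alone.

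Most of the variation of the 9 genes lay within the groups, and it was largely shared among them. Wild-type replicate 1 and PROSER1 KO replicate 1 were the 2 highest libraries for 8 of the 9 genes, a pair that was on top for 5.05% of all genes tested, and the exception was Tcf3. PROSER1 KO replicate 1 lay above the 7-library mean for 9 of 9 genes, wild-type replicate 1 for 8 and wild-type replicate 2 for 0. The group explained a median of 1.96% of the variance of the 9 genes on the log2 scale, against 13.2% for all genes tested, and at most 35.8%, for Rag1.

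The genes split by how much they varied. The SD within groups on the log2 scale was larger for Rag1 than for 98.5% of the 9394 genes with a mean of at least 500 normalized counts, for Il7r than for 97.5%, for Rag2 than for 97.2%, for Dntt than for 96.7% and for Satb1 than for 94.1%. Flt3 (87.1%) and Bcl11a (58.1%) followed. Ikzf1 (20.3%) and Tcf3 (8.59%) were steadier than most genes. Across the 7 libraries, the 36 pairs of the 9 genes had a median Pearson r of 0.80, from 0.33 (Il7r with Tcf3) to 0.97 (Satb1 with Rag2), a description over libraries of which the same 2 were high for nearly all of the genes.

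**Figure D4:**
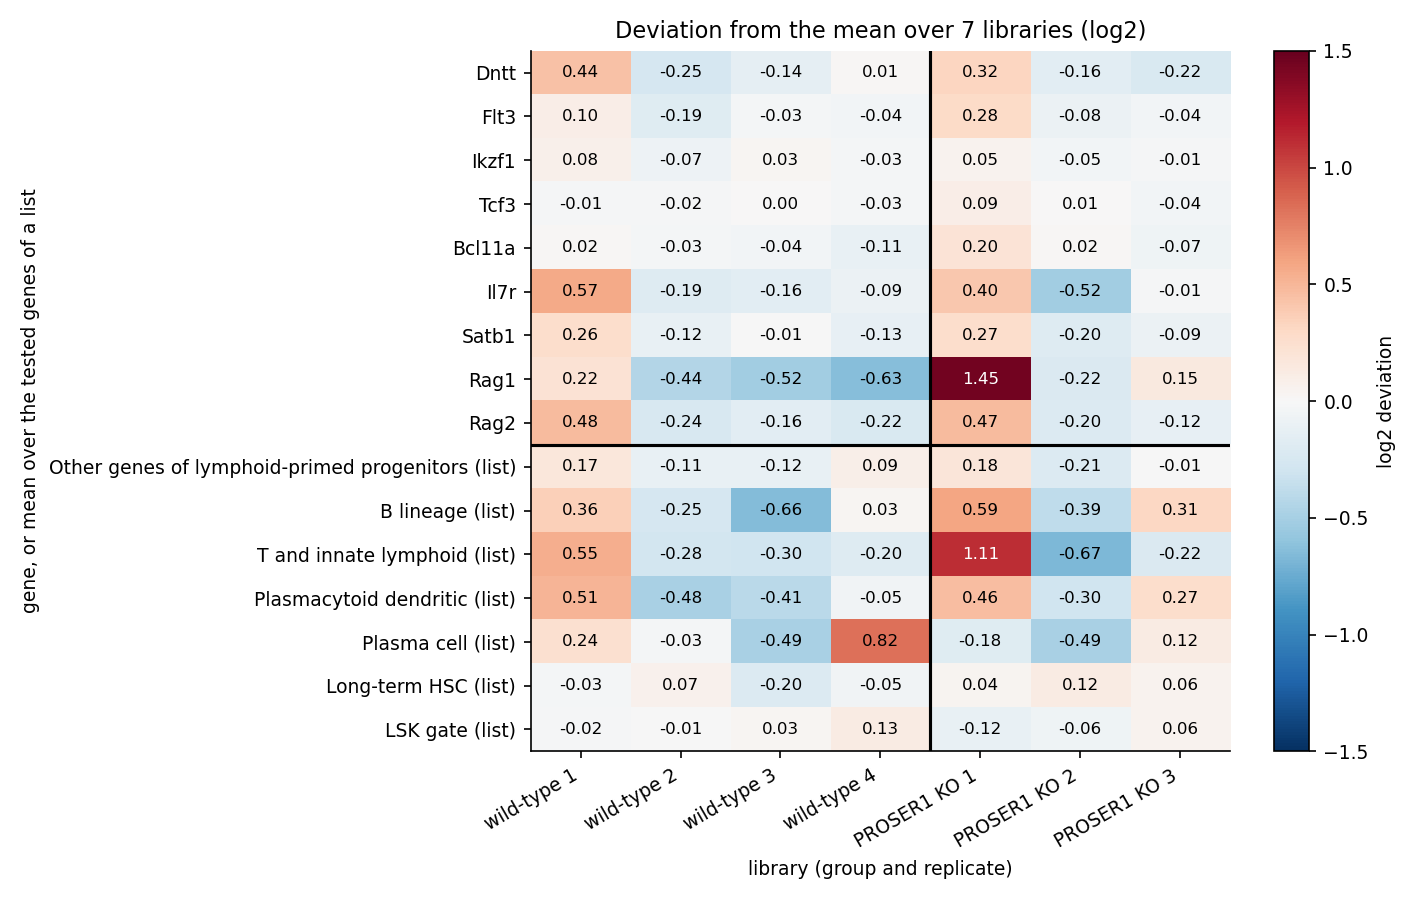
Deviation of each gene (upper rows) and of the mean over the tested genes of 7 marker or related lists (lower rows) from the mean of the 7 libraries, in log2 units, one column for each library. Wild-type replicate 1 and PROSER1 KO replicate 1 are positive for nearly all of the 9 genes, and Rag1 is at 1.45 in the latter.

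Marker lists show what else moved with those 2 libraries. The mean deviation over 13 T and innate lymphoid genes was 0.55 in wild-type replicate 1 and 1.11 in PROSER1 KO replicate 1, with none of the other libraries above -0.20. The value of 1.11 rested mostly on Cd3g, Cd3e and Cd3d, and not all of the 13 genes were high in that library. Cd4 was at 170 normalized counts there, against 200 to 287 in wild-type. Over 11 B lineage genes the mean deviation in the same 2 libraries was 0.36 and 0.59, and over 5 tested plasmacytoid dendritic genes 0.51 and 0.46. PROSER1 KO replicate 3 was also positive for both lists (0.31 and 0.27). Kit and Ly6a belong to the LSK gate and Cd34 does not, and the mean over these 3 genes deviated by -0.02 and -0.12. That over the 12 long-term HSC genes deviated by -0.03 and 0.04. Kit, at 25535 to 32357 normalized counts in wild-type and 25761 to 29959.5 in PROSER1 KO, and Ly6a, the gene of Sca1, were high in every library. Of the other lists, the granulocyte and monocyte genes deviated by 0.11 and -0.27 and the megakaryocyte and erythroid genes by -0.26 and 0.51, with opposite signs in the 2 libraries. The summed level of the T and innate lymphoid genes was 6633 to 9269 normalized counts in wild-type and 6292 to 10149 in PROSER1 KO, that of the B lineage genes 4400 to 8733 and 4584 to 7339, and that of the 6 plasmacytoid dendritic genes 6265 to 7189 and 6078 to 7274. Of the 30 genes on these 3 lists Klk1 was at or under the floor of 3 read pairs in every library. The part of these lineage transcripts in the high values of both first libraries was not tested.

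Genes that work with the 9 were read from 8 lists written from general knowledge, with 81 genes, of which 80 passed the filter on low values (Id4 did not). None of the 80 was called by limma (0.258% of all genes), 2 had an unadjusted p under 0.05 (9.73% of all genes did), and for 2 of 80 (2.50%, beside 10% of all genes) the groups did not overlap. These were Id2 and Ltb, with all values lower in the libraries labelled PROSER1 KO. The median log2 fold change lay between -0.05 and 0.05 for each of the 8 lists, beside 0.00 for all genes tested.

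Among the partners and inhibitors of E proteins, Id2 had the lowest p. ID2 pairs with E proteins such as E2A and keeps them from DNA. It was measured at 1104, 720.3, 640.2 and 659.6 normalized counts in wild-type, against 523, 441 and 459 in PROSER1 KO. All 3 KO libraries were below all 4 wild-type libraries. The log2 fold change was -0.69 (SE 0.18) with a limma adjusted p of 0.213 and an edgeR adjusted p of 0.214, neither past the threshold. DESeq2 called it, with a log2 fold change of -0.72 and an adjusted p of 0.00177. The exact permutation p was 0.0286, and over the leave-one-out fits the log2 fold change lay between -0.77 and -0.51 with limma adjusted p from 0.177 to 0.480.

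T and innate lymphoid cells can express Id2, and of their 13 marker genes 9 had a log2 fold change below 0 (median -0.09), with none called by limma. Cd4 averaged 237 ± 37.5 normalized counts in wild-type (SD, n = 4) against 158 ± 40.6 in PROSER1 KO (SD, n = 3), again without overlap (log2 fold change -0.61, limma adjusted p 0.374). The natural killer cell receptor gene Klrb1c was at 156, 102, 110.3 and 111 against 126, 43.2 and 69.1 (log2 fold change -0.70, limma adjusted p 0.535). Ncr1, which encodes another such receptor, was at 275, 139.7, 134 and 75.4 against 147, 49.9 and 62.4 (log2 fold change -0.86, limma adjusted p 0.586). Klrb1c and Ncr1 were highest in wild-type replicate 1, as Id2 and Ltb were, whereas Cd4 had its lowest wild-type value there (200). The 4 genes of the list above 0 were Cd3g (log2 fold change 1.61), Cd3d (1.52), Cd3e (1.27) and Tcf7 (0.08). Each of them was highest in PROSER1 KO replicate 1, where Id2 was at 523. The part of T and innate lymphoid cells in the Id2 and Ltb values was not tested.

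The levels of the other E protein genes overlapped between the 2 groups. Tcf4 had 9078 ± 909 normalized counts in wild-type (SD, n = 4) and 9417 ± 1200.02 in PROSER1 KO (SD, n = 3), a log2 fold change of 0.05 with a limma adjusted p of 0.913. Tcf12 had 5452 ± 298 (SD, n = 4) against 5597 ± 311 (SD, n = 3), its log2 fold change being 0.04 with a limma adjusted p of 0.887. The inhibitor gene Id3 ranged from 18.9 to 44.9 normalized counts over the 7 libraries, and its groups overlapped. Id1 was at 24.0, 11.7, 3.45 and 23.2 in wild-type against 22.9, 30.5 and 23.0 in PROSER1 KO, where the floor of 3 read pairs corresponds to 2.54 to 3.48, and its log2 fold change of 0.95 (SE 0.60) had a limma adjusted p of 0.651.

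**Figure D5:**
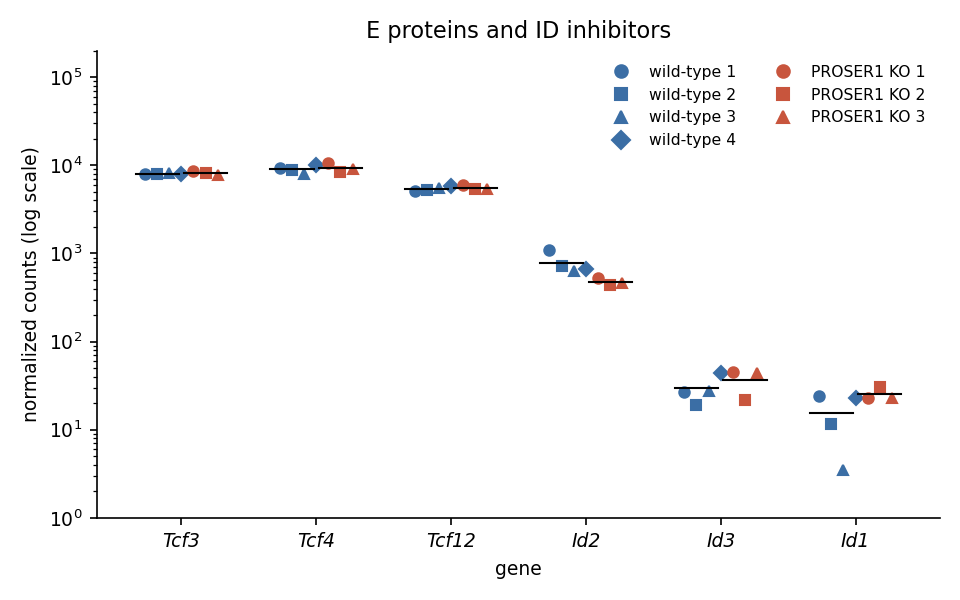
Normalized counts (log axis) of 3 E protein genes and 3 ID inhibitor genes in each library, with wild-type in blue, PROSER1 KO in red and black bars at the group means. Id2 lies between 640 and 1104 in wild-type and between 441 and 523 in PROSER1 KO, while Tcf3, Tcf4 and Tcf12 overlap between groups.

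Of the 12 other genes of lymphoid-primed progenitors (among them Notch1, Cd27, Ccr9 and Mef2c), 8 had a log2 fold change above 0 and 4 below. Ltb, which encodes the cytokine lymphotoxin beta, had the lowest p. It had 2938, 2339, 2295 and 2404 normalized counts in wild-type against 2236, 1915 and 1942 in PROSER1 KO, so that the groups did not overlap, by a narrow margin between wild-type replicate 3 and KO replicate 1. Its log2 fold change was -0.29 (SE 0.094, limma adjusted p 0.340). Ly6d, a surface marker of lymphoid progenitors biased to the B lineage, was next, with a log2 fold change of -0.28 (SE 0.27, limma adjusted p 0.784) that shrank to -0.06 without wild-type replicate 4, the library in which it reached 3880.1 normalized counts. The mean deviation over the 8 plasma cell genes was likewise highest in that library, at 0.24, -0.03, -0.49 and 0.82 in wild-type against -0.18, -0.49 and 0.12 in PROSER1 KO. All 8 had a log2 fold change below 0 (median -0.27, beside 0.00 for all genes tested), with none called and a lowest limma adjusted p of 0.621. The part of plasma cell RNA in the Ly6d values was not tested.

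Averaged over each list, the signaling partners of both receptors varied little. Single genes could vary more, such as Il7 (68.2 to 157 normalized counts over the libraries) and Flt3l (460 to 727). Of 13 IL-7 receptor partners the lowest p belonged to Bcl2, the survival gene downstream of the receptor (log2 fold change -0.15, limma adjusted p 0.515), and to Il2rg, the common gamma chain that pairs with the Il7r product (-0.11, adjusted p 0.614). Of 12 genes of FLT3 signaling they belonged to the adaptors Gab2 (0.13, limma adjusted p 0.524) and Sh2b3 (0.11, adjusted p 0.560). The mean deviation of these 2 lists stayed between -0.07 and 0.07 in every library. The FLT3 signaling list was highest in PROSER1 KO replicate 1 (0.07), as Flt3 was, but stood at -0.02 in wild-type replicate 1. The IL-7 receptor partners were at -0.05 in wild-type replicate 1 and -0.02 in PROSER1 KO replicate 1.

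The V(D)J recombination partners include the repair factors that join the ends cut by RAG1 and RAG2. Of these 13 genes 6 were above 0 and 7 below, led by Xrcc5, which encodes Ku80 (log2 fold change -0.10, limma adjusted p 0.710), and Prkdc, which encodes the catalytic subunit of DNA-PK (0.09, adjusted p 0.735). Of 6 relatives of Ikaros, SATB1 and BCL11A, Ikzf5 (0.11, limma adjusted p 0.581) and Ikzf4 (0.31, adjusted p 0.771) had the lowest p. Bcl11b, the T lineage relative of Bcl11a, had 407, 205, 151 and 132 normalized counts in wild-type against 611, 124 and 128 in PROSER1 KO, high in the same 2 libraries as the 9 genes.

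Regulators that act before or with the lymphoid program also lay close to 0. Of 7 such genes, Meis1 and Hoxa9, homeobox genes of stem and progenitor cells, had log2 fold changes of -0.08 (limma adjusted p 0.665) and -0.09 (adjusted p 0.716). Of the 12 genes of the NuRD complex, the chromatin remodeler with which Ikaros associates, Mta3 (0.16, limma adjusted p 0.544) and Mbd3 (-0.10, adjusted p 0.636) had the lowest p.

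For 3 of the genes the most similar profiles over the 7 libraries were sought among genes with a mean of at least 100 normalized counts. By Pearson r of the log2 values, those nearest to Flt3 were Ncf1 (0.992), Wasf2 (0.987) and H2-Ob (0.984). Those nearest to Dntt were Polr2i (0.980), Anapc10 (0.978) and Xrcc6 (0.968), and those nearest to Il7r were Prkcb (0.970), Rmc1 (0.969) and Dda1 (0.968). These are descriptions over 7 libraries, with 11995 genes ranked for each.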

How the data were processed

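The 4 wild-type and 3 PROSER1 KO libraries of LSK cell RNA were grouped by their labels. Per the methods and the submitters' processing notes, the authors trimmed reads with Trimmomatic, mapped them to mm10 (GRCm38.p6) with STAR, counted read pairs with featureCounts on GENCODE M25 and normalized with DESeq2. Versions and the strand setting of the counting were not given in the sources used here, and the column of gene IDs is headed M10. The deposited values are this normalized signal per gene (counts divided by 1 size factor per library), with no filter on low values. From the smallest step of each library, 100% of values gave whole read pairs within 0.01. No columns of other samples were left over (0). Pairs of libraries within a group differed by far more than counting noise (chi-square per degree of freedom 30.4 to 96.6).

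Groups were compared by limma 3.58.1 (R 4.3.3) with a mean-variance trend, after log2(normalized count + 1), in the 16251 genes whose mean reached 10. A call needed a Benjamini-Hochberg adjusted p under 0.05 and a fold change above 1.5. Fold changes are on the log2(value + 1) scale and understate those of low genes. Exact permutation tests were two-sided over 35 splits. Positions and exon lengths came from GENCODE M21, to which 48058 IDs matched, and 685 genes had no symbol (0.135% of read pairs or less). The floor of 3 read pairs and intervals on counts cover counting error only. The alternatives used a pseudocount of 0.1 or 10, a minimum mean of 50 or no filter, eBayes without trend or robust, quantile and TMM normalization, edgeR 4.0.16 (quasi-likelihood) and DESeq2 1.42.0 on recovered read pairs, omission of antigen receptor variable genes, a replicate block and each library left out. On simulated data limma recovered 90% of genes changed by 1 on the log2 scale and 99% of those changed by 2, with 4 false calls over 16274 genes. This recovery was not worked out separately for genes that vary much between libraries. The SD within groups on the log2 scale was 0.63 for Rag1, 0.40 for Il7r, 0.35 for Rag2 and 0.30 for Dntt. The simulated recovery therefore cannot be taken as the recovery for genes as variable as these.

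The 9 genes, the lists and the tests were chosen with earlier results of these data known. Named were the 9 genes, the 2 genes of lowest p in each of the 8 related lists, the 3 profiles most like Flt3, Dntt and Il7r, and Proser1. Lineage genes beside the Rag1 and Id2 results, Kit, Tcf4, Tcf12, Id3 and Bcl11b were chosen after their values were seen.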

Additional observations from a re-analysis of the deposited data

Results flagged for a closer look

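Of 43 values tested over the 4 wild-type libraries (genes, summed lists and 1 ratio), 3 stood out, all in wild-type replicate 1. These 3 genes lay far enough from the other 3 wild-type libraries to pass Dixon's test for an outlier at the 95% level, which chance passes in about 1 of 20 groups. Il7r was at 2971 normalized counts there, against 1748, 1794 and 1884 in the other wild-type libraries. Rag2 was at 816, against 496, 523 and 501. Ltb was at 2938, against 2339, 2295 and 2404. Without that library the log2 fold change of Il7r went from -0.08 to 0.10, that of Rag2 from 0.09 to 0.26 and that of Ltb from -0.29 to -0.21, and none was called by limma. The 3 PROSER1 KO libraries were not tested in this way.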

How the results depend on the processing

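In all 20 alternatives 0 of the 9 genes were called. The number of genes called over the whole table was 42, and it was 80 with robust variance estimates, 165 with DESeq2 on read pairs, 13 with both libraries numbered 1 left out (an alternative chosen after seeing the data) and 23 to 42 with each library left out. The other alternatives gave 17 to 69 genes, with 17 without the mean-variance trend and 69 without antigen receptor variable genes. Ikzf1 turned from -0.00470 to 0.00167 under quantile normalization, and Tcf3 from 0.03 to -0.00393 with both libraries numbered 1 left out.

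With each library left out, the log2 fold changes ranged from -0.0204 to 0.16 for Flt3, -0.20 to 0.11 for Dntt, -0.30 to 0.16 for Il7r, -0.15 to 0.0872 for Satb1, -0.0310 to 0.0205 for Ikzf1, 0.31 to 1.15 for Rag1, -0.12 to 0.26 for Rag2, -0.00469 to 0.0648 for Tcf3 and 0.02 to 0.15 for Bcl11a. Flt3, Rag2 and Tcf3 changed sign without PROSER1 KO replicate 1, and Dntt, Il7r, Satb1 and Ikzf1 without wild-type replicate 1 and without KO replicate 2, and all but Il7r of these also without KO replicate 3. Ikzf1 also did so without wild-type replicate 3. Id1 could not be tested at a minimum mean of 50. Id2 was called by DESeq2 alone among the alternatives. The cause of these changes was not tested.

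Same-numbered libraries correlated at 0.0226, 0.0575 and -0.106 over all genes tested after removal of the group means. A correlation over all genes cannot show whether the replicate numbers pair the samples for the 9 genes. With the replicate number as a block 35 genes were called, 26 of them among the 42, and the log2 fold changes of the 9 genes ranged from -0.12 (Il7r) to 0.71 (Rag1). Wild-type replicate 4 has no KO library of its number and added nothing to the group difference in that fit. The SE was smaller than without the block for all of the 9 genes but Ikzf1 and Tcf3. For Rag1 it was 0.17 against 0.36, with an unadjusted limma p of 0.0052 under the block and a limma adjusted p of 0.299. Depth limits Rag1 and Rag2 most, and the 7 libraries limit all 9 genes more than depth does.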

Other observations

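The ratios of Dntt, Il7r and Satb1 to Rag1 also separated the groups without overlap, as did 10% of single genes tested. Dntt over Rag1 was 36.2, 35.5, 40.5 and 48.8 in the wild-type libraries against 14.2, 32.6 and 24.0 in PROSER1 KO. Il7r over Rag1 was 2.40, 2.23, 2.41 and 2.74 in wild-type against 0.905, 1.53 and 1.68 in PROSER1 KO. Satb1 over Rag1 was 7.29, 8.87, 10.1 and 10.05 in wild-type against 3.11, 7.18 and 5.998 in PROSER1 KO. These share Rag1 with the ratio given above and are not independent of it, and each had an adjusted exact permutation p of 0.257.

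With both first libraries left aside, the remaining 5 libraries agreed within 1.04-fold for Tcf3, 1.07-fold for Ikzf1, 1.09-fold for Rag2 and Bcl11a, 1.11-fold for Flt3, 1.14-fold for Satb1 and 1.20-fold for Dntt. Il7r (1.42-fold) and Rag1 (1.72-fold) kept a wider spread. For Il7r the lowest of these was PROSER1 KO replicate 2 at 1394 and the highest KO replicate 3 at 1982, and for Rag1 the KO libraries, at 914 and 1182, were above the wild-type libraries, at 783, 744 and 686.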
